A study of Mus musculus with 6 samples.

Results

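Dlx1, Dlx2, Dlx5, Dlx6, Emx1, Emx2, Fezf2, Sp8 and Dmrta2 are transcription factor genes that pattern the telencephalon, and their mRNAs were followed here in cultured NSC/NPCs of the fetal hypothalamus. They are 9 of the 22048 genes in the deposited table and were found by gene symbol. The set was selected on these same samples: the HE minus NC differences and the values by sample were known when it was drawn up, so both are given as a description and carry no test. A filter on low read counts, explained under the comparison of the groups, was passed by 7 of the 9. Dlx5 and Dlx6 did not pass it.

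The cells came from male C57BL/6 fetuses at E14.5. Pregnant dams aged 8 wk were given, in the HE group, 100 μg/kg/d of estradiol valerate, an ester that releases estradiol, by gavage on E5.5 to E11.5. NC dams received corn oil alone, although the treatment label of the NC samples reads untreated. Hypothalami of both groups were dissociated and grown as floating neurospheres with 2% B27, EGF at 10 ng/mL and bFGF at 10 ng/mL, and first-passage cells were sequenced. There were 3 samples per group, NC1 to NC3 and HE1 to HE3, and according to the methods of the study each pooled the cells of 2 mice. The labels instead assign the 2 mice to a group, under which samples of a group could share animals. Which holds could not be settled, so n = 3 counts samples and not animals, and the SDs and p-values measure the spread between samples, part of which may be technical.

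The telencephalon is the front of the forebrain, which gives rise to the cerebral cortex dorsally and to the basal ganglia and most cortical interneurons ventrally. The Dlx genes encode homeodomain proteins that drive GABAergic neuron fate in the ventral telencephalon, and they are also expressed in parts of the hypothalamus and prethalamus. Emx1 and Emx2 encode homeodomain proteins of the dorsal telencephalon, Fezf2 a zinc finger protein of the rostral forebrain and of deep-layer cortical neurons, Sp8 a zinc finger protein of the rostral patterning centre and of olfactory interneurons, and Dmrta2 a DM-domain protein needed for the cortical hem and the medial cortex.

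Reads counted on genes ranged from 16078675 in HE3 to 19137059 in NC2. Levels are given as RPKM, the reads of a gene scaled to its length in kilobases and to the total of the library, and 1 read on a gene of 1 kilobase corresponds to 0.0523 to 0.0622 RPKM. Pomc, the precursor of melanocortin peptides and a marker of arcuate neurons, was at 302 RPKM in NC1 and at 1.54 to 3.89 RPKM in the other 5 libraries. HE3 was the shallowest library and received a weight of 0.158 when limma estimated sample weights over all tested genes, against 0.852 to 2.87 for the others.

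The labelled cell type was checked against 8 neural stem cell markers, of which all 8 were measured and passed the filter. Their summed level was 3083 to 3722 RPKM in NC and 2961 to 4704 RPKM in HE, led by the intermediate filament gene Vim and the fatty acid binding protein gene Fabp7. The highest sum was that of HE3, where Fabp7 was at 2383 RPKM. Of the 8 markers, 2 were higher and 6 lower in HE, with a median difference of -0.24. Lower without overlap were 2 of the 8, beside 17.9% of all genes past the filter. Sox2, the transcription factor used to identify such cells, was at 209, 209 and 195 RPKM in NC and at 176, 172 and 97.3 RPKM in HE. The hypothalamic label was less evident in the markers, since 8 of 16 hypothalamic genes (Rax, Otp, Sim1, Nr5a1, Lhx1, Bsx, Hmx2 and Hmx3) had fewer than 10 reads in every library. Otp, Nr5a1, Lhx1, Bsx, Hmx2 and Hmx3 were at 0 in at least 1 library. Of the 7 hypothalamic genes past the filter, 5 were higher in HE, 4 of them at an unadjusted p under 0.05 in limma and without overlap. The median difference was 0.52. Of all 13952 genes past the filter, 8.68% were higher at that p and 2067 were higher without overlap. Nkx2-2, a homeobox gene of the ventral neural tube, was at 2.24, 2.24 and 2.41 RPKM in NC and 3.09, 3.57 and 3.35 RPKM in HE. The other 3, picked out after their values were seen, were Foxb1 at a difference of 1.98 (standard error 0.54), Nkx2-4 at 1.42 (0.46) and Six6 at 0.80 (0.34). Six6 rested on few reads, 12, 1 and 3 in NC and 12, 13 and 13 in HE. Nkx2-1, also picked out after its values were seen, specifies the ventral hypothalamus and the medial ganglionic eminence of the telencephalon, and was at 3.34, 2.87 and 1.99 RPKM in NC and 2.20, 1.92 and 1.03 RPKM in HE. Whether cells of the adjoining telencephalon were present in the cultures was not tested. In bulk RNA, a smaller share of cells of 1 type and less mRNA in each cell cannot be told apart.

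The Dlx genes lie in pairs. Dlx1 spans chr2:71528113-71533981 and Dlx2 chr2:71543408-71546754 in GRCm38.p6, 9426 bases apart. Dlx6 spans chr6:6863334-6867970 and Dlx5 chr6:6877801-6882068, 9830 bases apart. Genes of such a pair share enhancers in the forebrain and are usually transcribed in the same cells. Antisense genes overlap the span of Dlx1 (Dlx1as) and of Dlx6 (Dlx6os1). They were not analysed here, and as the use of strand in counting is not stated, their reads cannot be told apart from those of the pair.

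Because Dlx1 and Dlx2 took similar values across the libraries, their promoters are shown. The RefSeq promoter table for GRCm38.p6 gave windows of 300 bases, 250 before and 50 after a transcription start, for 7 of the 9 genes (9 windows, 3 of them for Sp8) and none for Dlx5 and Dlx6. GC content was 69.3% for Dlx1 and 66.3% for Dlx2, against a median of 52.7% over 32851 windows. Both windows held GGTCA, the core motif to which estrogen receptors and other nuclear receptors can bind, read on either strand, and so did 1 of the windows of Sp8. That 5-base motif was present in 40.5% of all windows, and the palindrome GGTCANNNTGACC that holds it on both strands, present in 0.0700% of them, was in none of the 9. The GGTCA motif of Dlx1 lies 29 bases before the start of its window and reads on the opposite strand. That of Dlx2 lies 45 bases before the start, and those of Sp8 lie 202 and 120 bases before it. The starts used for Dlx1 and Sp8 lie inside the annotated spans of these genes, and so do their GGTCA motifs. In the 29-base stretches that follow, written 5′ to 3′ on the strand of the gene, the motif is in capitals as GGTCA or its complement TGACC.
Dlx1, chr2:71529404-71529432, plus strand: caccggactaggTGACCtcaagaagaagt
Dlx2, chr2:71546783-71546811, minus strand: gacgttgcccgcGGTCAcgtgataagtgt
Sp8, chr12:118847019-118847047, plus strand: ctctccgaggtgGGTCAcactcgcgatca
Sp8, chr12:118847101-118847129, plus strand: cgccggcgccgaTGACCtcacggcgcgcg

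The 250 bases before the start of Dlx2, chr2:71546755-71547004 on the minus strand, show that motif among other short motifs. Capitals mark GGTCA and the GC box GGGCGG, the site of Sp-family proteins, or their complements. GGTCA runs into an E-box (CANNTG), the site of basic helix-loop-helix proteins.
Dlx2: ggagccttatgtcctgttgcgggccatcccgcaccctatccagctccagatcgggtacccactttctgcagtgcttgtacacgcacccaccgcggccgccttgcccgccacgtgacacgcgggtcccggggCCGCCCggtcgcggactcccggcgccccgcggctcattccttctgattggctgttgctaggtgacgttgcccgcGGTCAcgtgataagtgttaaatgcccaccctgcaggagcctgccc
The GC box was present in 35.7% of all windows and the E-box in 72.3%. A match is only a run of letters, and nothing about binding was measured.

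Dlx1 was the member with the widest spread. It was at 4.69, 0.649 and 1.70 RPKM in NC1 to NC3 and at 1.12, 0.622 and 0.0922 RPKM in HE1 to HE3, from 475, 67 and 174 reads and from 108, 64 and 8 reads. NC1 stood highest, HE3 lowest, and the groups overlapped, since NC2 lay below HE1 and next to HE2. The exact Poisson 95% intervals of the reads, which cover counting error only, ran from 4.28 to 5.13 RPKM in NC1 and from 0.503 to 0.824 RPKM in NC2. The gap between these NC libraries was 7.23-fold and exceeded the 3.84-fold ratio of the NC mean to the HE mean. The mean was 2.35 ± 2.10 RPKM for NC and 0.611 ± 0.513 RPKM for HE (here and below, ± gives the SD over n = 3 libraries).

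Dlx2, which acts with Dlx1 in GABAergic progenitors, was at 2.44, 0.329 and 1.29 RPKM in NC and at 0.626, 0.496 and 0.0654 RPKM in HE. NC2, with 18 reads, lay below both HE1 (32 reads) and HE2 (27 reads), and only HE3, with 3 reads, was lower. The order of the libraries was that of Dlx1 except that NC2 and HE2 changed places, and those neighbours had overlapping counting intervals in both genes. The ratio of Dlx1 to Dlx2 RPKM stayed between 1.25 and 1.97 in the 6 libraries, while Dlx1 itself ranged 50.9-fold. The means of Dlx2 were 1.36 ± 1.06 RPKM in NC and 0.396 ± 0.293 RPKM in HE.

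Dlx5 and Dlx6, which act downstream of Dlx1 and Dlx2 as the neurons mature, were near the limit of detection. Dlx5 had 25, 0 and 8 reads in NC and 5, 5 and 3 in HE, or 0.589, 0 and 0.187 RPKM against 0.123, 0.116 and 0.0824 RPKM. The 0 of NC2 allows a level of up to 0.0852 RPKM, so NC2 was not separable from the HE libraries. Dlx6 had 19, 6 and 13 reads in NC and 9, 3 and 0 in HE, or 0.426, 0.132 and 0.289 RPKM against 0.212, 0.0662 and 0 RPKM. Its highest libraries were again NC1 and NC3. The 0 of HE3 allows up to 0.0966 RPKM.

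**Figure D1:**
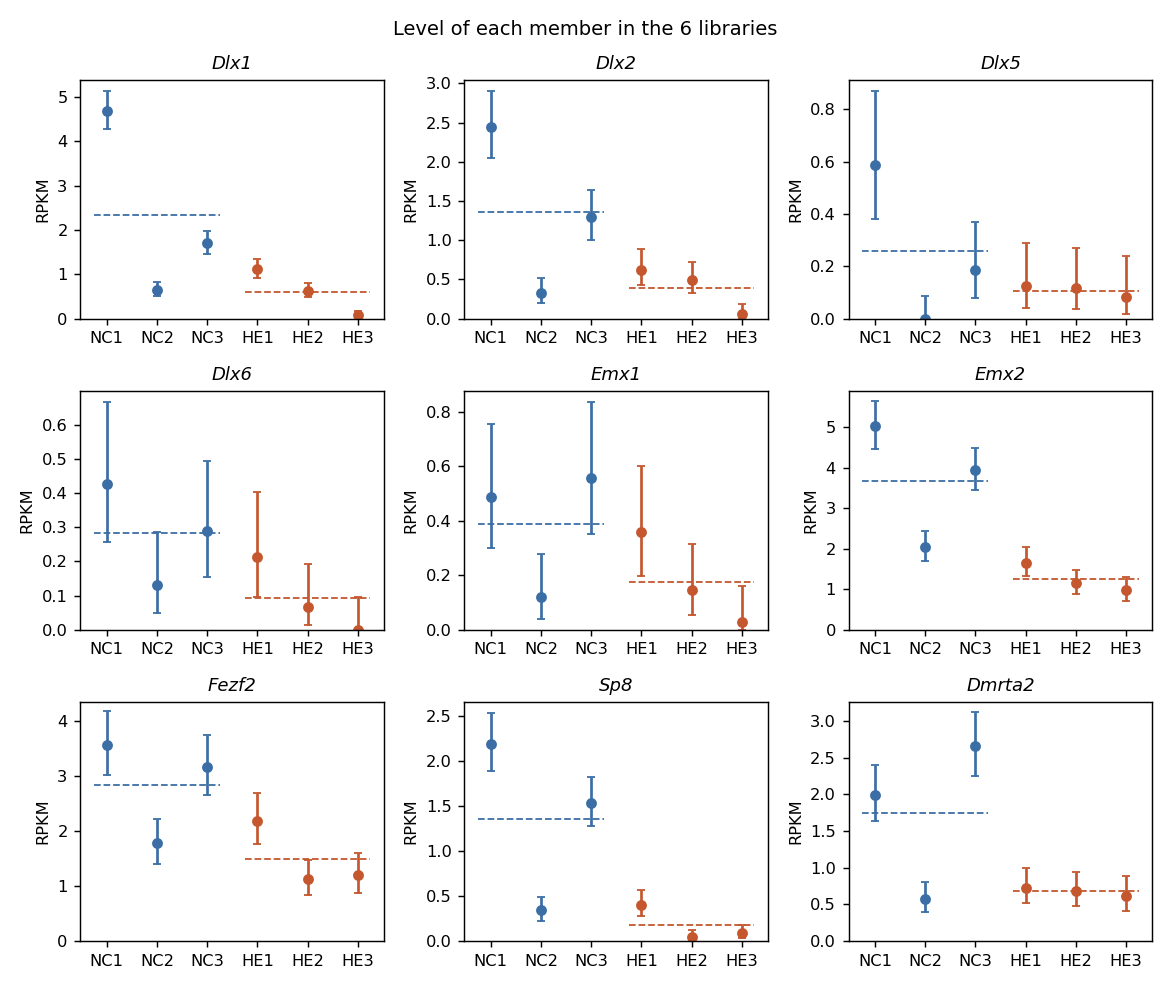
Level of each of the 9 genes in each library in RPKM (vertical axis, a separate linear scale for each gene; NC blue, HE orange). Points are single libraries, bars are exact Poisson 95% intervals of the reads and dashed lines are group means; NC1 and NC3 are the 2 highest libraries in 9 of 9 genes, and NC2 lies with the HE libraries in 8, Emx2 being the exception.

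Emx2 was the only member whose groups did not overlap. Emx2 (chr19:59458690-59465357), which promotes caudomedial cortical identity, was at 5.02, 2.04 and 3.94 RPKM in NC and at 1.66, 1.15 and 0.974 RPKM in HE, from 47 to 283 reads. The gap between the groups was narrow, as the counting interval of NC2, 1.68 to 2.44 RPKM, overlapped that of HE1, 1.33 to 2.04 RPKM. The means were 3.67 ± 1.51 and 1.26 ± 0.354 RPKM. Its paralog Emx1 (chr6:85187931-85204463), a marker of the cortical lineage, was lower per length, at 0.488, 0.120 and 0.556 RPKM in NC and 0.358, 0.144 and 0.0285 RPKM in HE. These are 20, 5 and 23 reads against 14, 6 and 1, and the groups overlapped. The means were 0.388 ± 0.235 and 0.177 ± 0.167 RPKM. Emx1 passed the filter through NC1, NC3 and HE1.

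The windows before the starts of Emx1 (chr6:85187681-85187930, plus strand) and Emx2 (chr19:59458440-59458689, plus strand) are printed because this pair of paralogs holds the densest GC boxes of the set, which are in capitals as GGGCGG or its complement.
Emx1: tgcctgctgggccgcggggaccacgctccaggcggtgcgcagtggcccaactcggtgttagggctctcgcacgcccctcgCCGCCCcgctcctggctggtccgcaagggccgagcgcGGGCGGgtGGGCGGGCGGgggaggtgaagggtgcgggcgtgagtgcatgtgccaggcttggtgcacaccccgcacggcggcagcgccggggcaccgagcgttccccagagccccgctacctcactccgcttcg
Emx2: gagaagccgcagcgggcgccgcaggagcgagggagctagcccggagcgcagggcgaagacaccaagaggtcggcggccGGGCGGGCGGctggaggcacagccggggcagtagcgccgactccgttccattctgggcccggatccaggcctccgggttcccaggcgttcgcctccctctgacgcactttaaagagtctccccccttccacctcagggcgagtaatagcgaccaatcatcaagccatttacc
The Emx1 window, with 37 CpG dinucleotides and 74.0% GC, carried 4 GC boxes and the Emx2 window, with 26 and 64.3%, carried 2, where the median window held 7 CpG dinucleotides. A GC box was found in 6 of the 7 genes with a window, Dmrta2 being the exception. Neither Emx window held GGTCA. The homeodomain core TAATTA, present in 5.29% of all windows, was found 36 bases after the start of Emx2 and in the third Sp8 window, 188 bases before its start, and in no other.

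Fezf2 (chr14:12338992-12346803) was the least variable member. It was at 3.56, 1.77 and 3.16 RPKM in NC and at 2.18, 1.12 and 1.19 RPKM in HE, from 44 to 154 reads, and HE1 lay above NC2. The means were 2.83 ± 0.941 and 1.49 ± 0.596 RPKM. The highest library exceeded the lowest 3.19-fold, against 5.16-fold for Emx2 and 50.9-fold for Dlx1.

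Sp8 (chr12:118846288-118852578) had the largest ratio of group means. It was at 2.19, 0.338 and 1.53 RPKM in NC and 0.399, 0.0468 and 0.0833 RPKM in HE, from 184, 29 and 130 reads and from 32, 4 and 6 reads. HE1 was slightly above NC2, with overlapping counting intervals, and the other HE libraries lay below every NC library. The NC mean, 1.35 ± 0.938 RPKM, was 7.67 times the HE mean of 0.176 ± 0.194 RPKM, while NC1 was 6.47 times NC2.

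Dmrta2 (chr4:109977989-109983691) had nearly equal HE values, as did Dlx5, which had only 5, 5 and 3 reads in HE. Dmrta2 was at 1.99, 0.572 and 2.66 RPKM in NC and at 0.726, 0.682 and 0.617 RPKM in HE. NC2 was the lowest of all 6 libraries and NC3 the highest. The SD was 0.0548 RPKM in HE around a mean of 0.675 RPKM, and 1.06 RPKM in NC around a mean of 1.74 RPKM. An antisense gene, Dmrta2os, overlaps the first 1636 bases of the annotated span and was not analysed here.

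The members thus shared an order of libraries as well as a lower HE mean. NC1 and NC3 were the 2 highest libraries in 9 of 9 members, and in 7 of the 7 that passed the filter, where 9.01% of the 13952 genes tested had both of these libraries above the other 4. NC1 was highest in 7 members and NC3 in Emx1 and Dmrta2. NC2 was the lowest NC library in 9 of 9, HE1 the highest HE library in 9 of 9, and HE1 lay above NC2 in 8 of 9. Counting error did not separate HE1 from NC2 in 8 members, Dlx1 being the exception, but it did separate NC1 from NC2 in 8 (not in Dlx6) and NC3 from NC2 in 7 (not in Dlx5 or Dlx6). Relative to the NC mean on the log2(RPKM + 0.1) scale, the median level over the 9 members was 0.54 in NC1, 0.21 in NC3, -0.61 in HE1, -1.12 in HE2, -1.22 in NC2 and -1.77 in HE3. Whether the composition of the cultures had a part in this order was not tested.

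The NC libraries differed from one another in these genes more than in most others. Among the 7 members past the filter, the widest range was that of Dlx1. The range between the highest and the lowest NC library was 2.68 for Dlx1 on the log2(RPKM + 0.1) scale, larger than in 99.5% of the genes tested, whose median range was 0.28. It was 2.57 for Dlx2, 2.38 for Sp8, 2.04 for Dmrta2 and 1.58 for Emx1, larger than in at least 98.1% of the genes tested. The narrowest of the 7 were 1.26 for Emx2 (larger than in 96.7%) and 0.97 for Fezf2 (larger than in 93.8%). Below the filter, Dlx5 had a range of 2.78 and Dlx6 of 1.18. Counting error widens the range at few reads, as in Emx1, Dlx5 and Dlx6. The spread within both groups, as the residual SD around the group means, was 1.36 for Dlx1 and 0.51 for Fezf2, against a median of 0.23 over the genes tested.

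**Figure D2:**
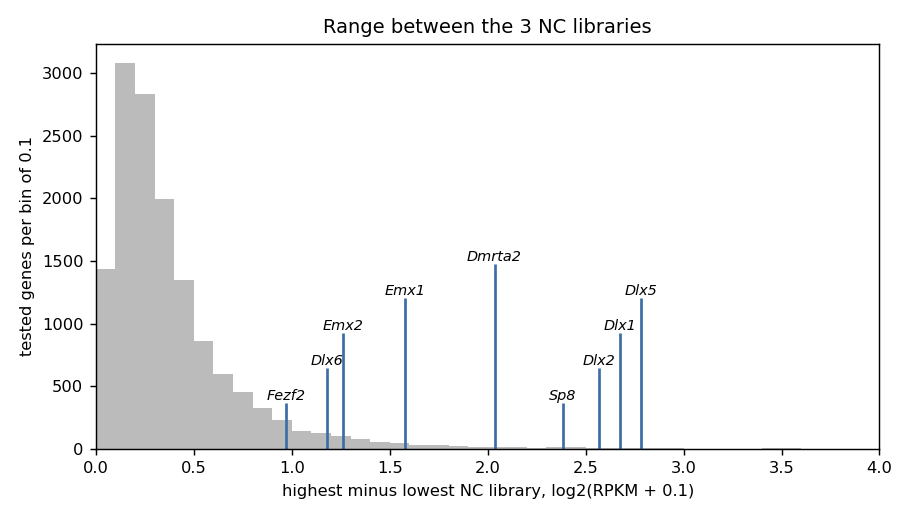
Highest minus lowest NC library on the log2(RPKM + 0.1) scale (horizontal axis) for the 13952 genes tested, as counts of genes in bins of 0.1 (vertical axis, grey), with each of the 9 genes as a blue line whose height has no meaning. Most genes lie near the median of 0.28, and the 9 genes lie between 0.97 and 2.78; Dlx5 and Dlx6 rest on few reads.

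The comparison of HE with NC asked which mRNAs differ in NSC/NPCs after a prenatal period of high estradiol. It was made with limma on log2(RPKM + 0.1) over the 13952 genes whose rate in at least 3 samples matched 10 reads at the median depth, with 15 reads in all. A difference on this scale understates the change of genes at low levels. With an adjusted p under 0.05 (Benjamini-Hochberg) and a log2 difference of at least 1 in either direction, limma called 0 genes, or 0% of those tested, and hence 0 of 7 members. The smallest adjusted p of any gene was 0.148. At an unadjusted p under 0.05 there were 2858 genes, of which 1647, or 11.8% of those tested, were lower in HE, and Emx2, Fezf2 and Sp8 were among them. Sample weights, run as an alternative, called 268 genes, and voom on the read counts called 0.

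HE minus NC was -2.31 for Sp8 (standard error 0.70), -1.75 for Dlx1 (0.84), -1.47 for Dlx2 (0.77) and -1.41 for Emx2 (0.35). It was -1.02 for Dmrta2 (0.49), -0.88 for Fezf2 (0.34) and -0.85 for Emx1 (0.58). The adjusted p-values in limma, which describe a set selected on this contrast, ran from 0.195 for Emx2 and Sp8 to 0.394 for Emx1. In a fit without the filter, Dlx6 was at -1.07 (0.47) and Dlx5 at -0.39 (0.63). The difference was -1 or below in 5 of the 7 and in 3.66% of the genes tested. The groups did not overlap in 1 of the 7, Emx2, where 17.9% of the genes tested had all HE values below all NC values. The median was -1.41 over the 7, against -0.06 over all genes tested.

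Single libraries set the size of these differences. Without NC2, HE minus NC was -2.41 for Dlx1, -3.02 for Sp8, -1.63 for Dmrta2 and -1.35 for Emx1, and the groups did not overlap in 9 of 9 members, 7 of them past the filter. NC2 was the library that lay among or below the HE values in 8 of them, and 22.5% of the genes tested were lower in HE without overlap once it was left out. Without HE1 the groups did not overlap in 5 of 9 members, 4 of them past the filter, against 25.9% of the genes tested, and Emx1 was at -1.31. Without NC1, NC3, HE2 or HE3 they did not overlap in 1 of 9, against 20%, 26.1%, 25% and 20.1% of the genes tested. Without NC1, the highest library for most members, the difference was -1.07 for Dlx1 and -0.90 for Dlx2. Without HE3 the difference was -0.99 for Dlx1, -0.81 for Dlx2 and -0.39 for Emx1, and without NC3 it was -0.61 for Dmrta2 and -0.56 for Emx1. Emx2 stayed between -1.77 and -1.14, and Fezf2 between -1.18 and -0.69, with any 1 library left out. The difference was negative for each of the 7 in each of these fits.

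**Figure D3:**
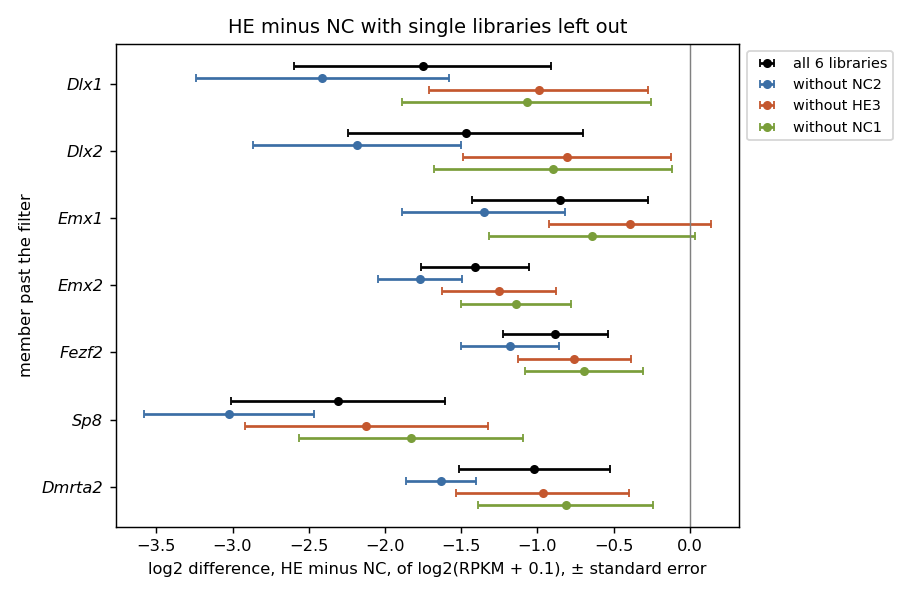
HE minus NC on the log2(RPKM + 0.1) scale (horizontal axis, limma estimate ± standard error) for the 7 genes past the filter, with all 6 libraries (black) and without NC2 (blue), HE3 (orange) or NC1 (green). Without NC2 the points move left, to -2.41 for Dlx1 and -3.02 for Sp8, and without HE3 those of Dlx1, Dlx2 and Emx1 move right, to -0.99, -0.81 and -0.39.

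The members were next compared with other genes by profile, as the root mean square difference over the 6 libraries on the log2(RPKM + 0.1) scale after the mean of each gene was removed. This is a description over 6 libraries that all genes share. Of 13951 genes, the closest to Dlx1 was Dlx2, at 0.27 where the median gene was at 1.38, followed by Elf3 at 0.36 and Wfdc2 at 0.38. The closest to Dlx2 was Elf3, an ETS factor of epithelia, at 0.14, then Dlx1 at 0.27 and Gm43517 at 0.36. Elf3 was at 1.59, 0.236 and 0.833 RPKM in NC and at 0.428, 0.426 and 0.0281 RPKM in HE, so it too had NC1 and NC3 highest and HE3 lowest.

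Emx2 was closest to Loxl1 (0.19), a lysyl oxidase of the extracellular matrix, Cyp46a1 (0.20), the cholesterol 24-hydroxylase of neurons, and Scube3 (0.22), where the median gene was at 0.82. Loxl1 was a far more abundant mRNA, at 60.9, 17.7 and 45.3 RPKM in NC and 20.8, 11.7 and 10.1 RPKM in HE. Fezf2 was closest to Ltbp1 (0.09), which encodes a binding protein of latent TGF-beta, Pde1a (0.14) and Meltf (0.15), where the median gene was at 0.62. Ltbp1 was at 14.8, 8.15 and 14.5 RPKM in NC and 9.37, 5.39 and 6.19 RPKM in HE. Emx2 and Fezf2 were close to each other, at 0.30, and Fezf2 ranked 17th among all genes for Emx2.

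Emx1 was closest to Spaca9 (0.18), Rab17 (0.18) and Frmd5 (0.21), where the median gene was at 0.83. Sp8 was closest to Dio2 (0.36), the deiodinase that activates thyroid hormone, Sox7 (0.39) and Tnn (0.42), where the median gene was at 1.46, and Emx2 ranked 13th for it. For Dmrta2, Celf4, which encodes an RNA-binding protein of neurons, was the closest at 0.28, and Cdon, which encodes a co-receptor for hedgehog ligands, was at 0.31, where the median gene was at 0.83. Celf4 was at 7.11, 2.85 and 6.82 RPKM in NC and 3.69, 2.78 and 2.55 RPKM in HE, with NC1 and NC3 again the highest libraries.

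Other genes of telencephalic patterning were taken from 7 lists, drawn up by textbook role with earlier results of these data known. Of their 78 genes 57 were tested, limma called 0, and 22 were higher and 35 lower in HE, where 56.2% of all genes tested were lower. At an unadjusted p under 0.05 there were 4 higher and 7 lower, beside 8.68% and 11.8% of all genes tested. The median difference was -0.25, against -0.06 over all genes tested, and NC1 and NC3 were the 2 highest libraries in 16 of the 57, beside 9.01% of all genes tested, which is a smaller share. These lists thus held genes with values in both directions, which are described list by list.

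The paralogs of the members differed among themselves in direction. Sp9, which acts with Sp8 in interneurons, was at 2.29, 0.549 and 0.764 RPKM in NC and 0.565, 0.353 and 0.210 RPKM in HE, a difference of -1.28 (standard error 0.52). Sp5, a target of Wnt signalling, was at -0.88 (0.46), with NC1 and NC3 highest in both genes. Fezf1, the paralog of Fezf2 that is expressed in the olfactory and hypothalamic primordia, was at 0.221, 0.130 and 0.0657 RPKM in NC and 0.255, 0.305 and 0.258 RPKM in HE, a difference of 0.69 (0.29) in the other direction from at most 14 reads per library. Dlx3, which works mainly in skin, placenta and teeth, was at -0.62 (0.48). Of the 7 genes in these lists, Dlx4, Dmrt3 and Dmrta1 were below the filter.

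Among 11 tested genes of the dorsal telencephalon, 4 were higher and 7 lower in HE, 0 of them at an unadjusted p under 0.05, with a median of -0.25. Lhx2, the selector gene of the cortex, had the largest difference of the 11, at -1.12 (standard error 0.73). It was at 10.2, 1.77 and 9.49 RPKM in NC and 5.17, 2.23 and 1.36 RPKM in HE, with NC2 again among the HE libraries. Gli3 was at -0.49 (0.23), Cux2 at -0.46 (0.28) and Nr2e1 at -0.31 (0.23). Pax6, chosen after its values were seen as a gene that did not share the pattern, was at 2.30, 4.03 and 3.48 RPKM in NC and 2.78, 4.55 and 2.41 RPKM in HE, with NC1 the lowest of the 6. Among the genes of differentiating cortical neurons, Neurog1, Neurog2, Eomes, Tbr1, Neurod1, Neurod2 and Neurod6 were each at 0 in at least 1 library. Of 7 tested genes of the cortical hem and of Cajal-Retzius cells, 3 were higher and 4 lower, with a median of -0.04. Reln was at 0.41 (0.35) and Rspo3 at -0.15 (0.29). Wnt8b, a Wnt ligand of the hem that was picked out after its values were seen, was at -0.99 (0.36), with its highest value in NC2.

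Among 10 tested genes of ventral progenitors, 5 were higher and 5 lower, with a median of -0.17. Meis2, a homeodomain cofactor of Dlx proteins in the striatum and olfactory bulb, was at 13.6, 4.85 and 11.2 RPKM in NC and 7.51, 5.07 and 1.56 RPKM in HE, a difference of -1.18 (standard error 0.61). Vax1, a homeobox gene of the ventral forebrain, was at 6.87, 2.11 and 4.21 RPKM in NC and 3.50, 1.64 and 1.61 RPKM in HE (-0.87, 0.46). Gsx1, another homeobox gene of ventral progenitors, was at -0.55 (0.29), and its relative Gsx2, picked out after its values were seen, at -1.33 (0.79) with 0 reads in HE3. These 4 genes had NC1 and NC3 highest. Pbx3 differed the other way, at 0.65 (0.19), and its groups did not overlap.

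Among 18 tested genes of GABAergic neurons, 5 were higher and 13 lower, 4 of the latter at an unadjusted p under 0.05, with a median of -0.33. Gad1, which makes GABA from glutamate, was at 2.90, 0.917 and 1.78 RPKM in NC and 1.47, 0.899 and 0.236 RPKM in HE, a difference of -1.15 (standard error 0.62). Gad2, the other enzyme of that step, was at 3.65, 2.46 and 2.21 RPKM in NC and 1.42, 1.21 and 1.30 RPKM in HE, a difference of -1.0 (0.22). Its groups did not overlap and NC2 was above NC3, unlike in the 9 members. The summed level of 7 general neuronal markers, led by Tubb3 and Map2, was 42.9 to 72.1 RPKM in NC and 49.7 to 67.7 RPKM in HE. Of these 7 markers, 3 were higher and 4 lower in HE, with a median of -0.08. The groups did not overlap in the 3 higher ones, Map2 among them, where 2067 of the 13952 genes tested were higher without overlap.

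Among 8 tested genes of the rostral signalling centre, 4 were higher and 4 lower, with a median of -0.18. Zic1 was at -0.84 (standard error 0.22) and Zic2 at -0.79 (0.29), both zinc finger genes of the midline whose groups did not overlap. Six3, which sets the rostral forebrain, was at -0.59 (0.34). Etv4, a target of FGF signalling, was at 13.3, 13.3 and 15.3 RPKM in NC and 17.9, 23.6 and 27.3 RPKM in HE, a difference of 0.70 (0.17). Fgf8, Fgf15, Fgf17 and Shh, the secreted signals of the centre, were each at 0 in at least 1 library and had fewer than 10 reads in every library.

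**Figure D4:**
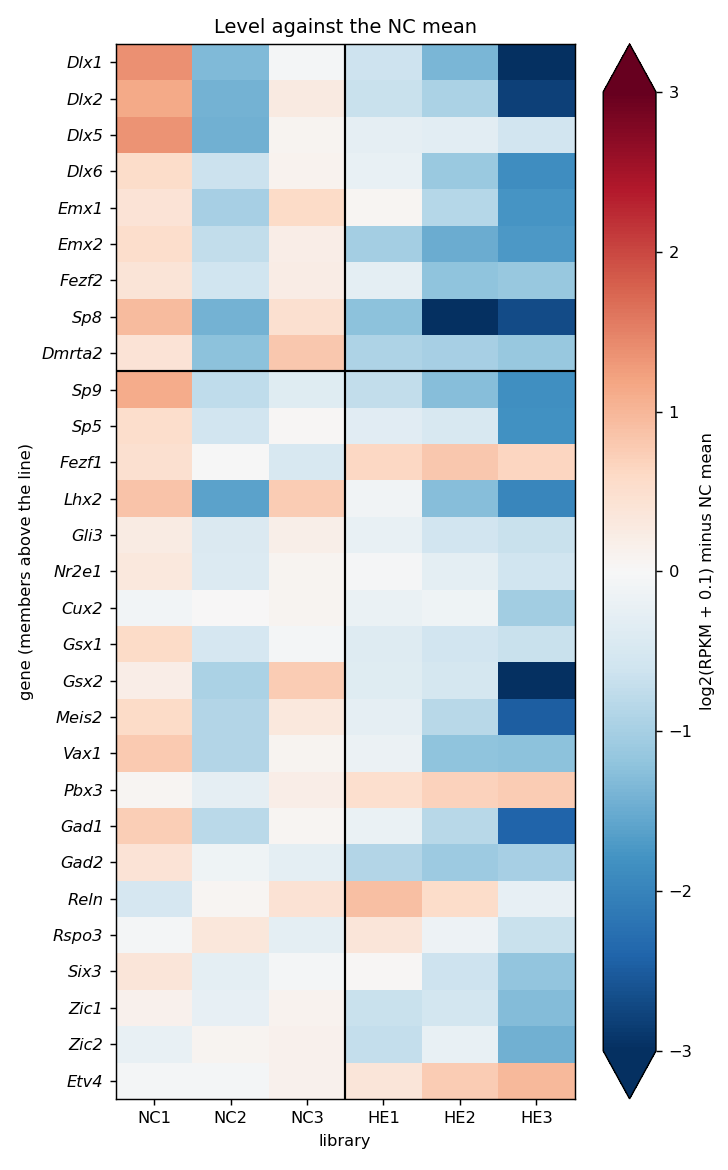
Level of the 9 genes (above the line) and of named genes of the telencephalic lists (below it) in each library, as log2(RPKM + 0.1) minus the NC mean of the gene (colour, which stops at -3 and 3). In the 9 genes NC1 is red, NC2 blue and HE3 blue; Lhx2, Meis2, Gad1 and Vax1 also have NC1 and NC3 highest, while Pbx3, Etv4 and Fezf1 are red in the HE libraries.

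Markers of other cell types also differed between the libraries, and their part in the values of the 9 genes was not tested. All 5 tested mesenchymal genes were higher in HE, led in level by the collagen genes Col3a1 and Col1a2, with a summed level of 61.8 to 141 RPKM in HE against 21.7 to 71.1 RPKM in NC, and Lum was below the filter. Endothelial genes, led by Cdh5 and Kdr, summed to 2.53 to 3.67 RPKM in HE and 0.888 to 1.31 RPKM in NC. Cdh5 made up most of the HE sums. The groups overlapped in Kdr and, named after their values were seen, in Pecam1 and Tek, while Cldn5 did not overlap but had at most 6 reads. Microglial genes, led by the complement genes C1qa and C1qb, summed to 1.09 to 5.74 RPKM in HE and 0.270 to 0.694 RPKM in NC. C1qa and Ptprc were at 0 in NC1 and NC2 and C1qb at 0 in NC2 and NC3. Those complement genes made up most of the HE sums. The groups overlapped in Ptprc and, named after their values were seen, in Csf1r, Cx3cr1 and Aif1. The mean of Aif1 was 0.138 RPKM in NC and 0.123 RPKM in HE. Astrocyte genes, led by Gfap and Aldoc, summed to 407 to 910 RPKM in HE and 824 to 1001 RPKM in NC. The mean of Gfap was 667 RPKM in NC and 411 RPKM in HE. Of the 5 genes, however, 3 were higher in HE and 2 lower, with a median of 0.05. Oligodendrocyte lineage genes, led by Olig1 and Mbp, summed to 205 to 330 RPKM in HE and 184 to 198 RPKM in NC. Olig1 made up most of that sum, and of the 6 genes 1 was higher in HE and 5 lower, with a median of -0.26. In HE3 Olig1 was at 312 RPKM but Mbp at 1.79 RPKM, where Mbp was at 15.2, 22.2 and 11.8 RPKM in NC. Choroid plexus genes, led by Ttr and Otx2, summed to 14.5 to 409 RPKM in HE and 56.4 to 204 RPKM in NC, and Kcnj13 was at 0 in HE2. Ttr was at 393 RPKM in HE1 and 8.21 RPKM in HE3. The 2 tested genes were both lower in HE, with a median of -0.45. Otx2 was lower without overlap, as were 17.9% of all genes tested. NC1 and NC3 were not the 2 highest libraries, as they were in the 9 genes, in any of these sums, and in that of the oligodendrocyte lineage they were the 2 lowest.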

How the data were processed

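RNA-Seq was available for 3 NC and 3 HE samples of first-passage NSC/NPCs. According to the methods of the study and the processing notes of the submitters, the authors filtered the reads, aligned them with TopHat2 to mm10 and counted them per gene. CASAVA 1.7 is also named. The counting tool and its annotation are not given in the sources used here, and the study and the labels name different Illumina sequencers. The deposited table holds raw read counts and RPKM, which the authors derived from that count by gene length and library total, and recomputed RPKM differed by at most 4.99e-07. The only other column is the gene length.

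Because 18.8% of the deposited read count cells contain a comma between digits, the count columns were recorded under another unit, and no count model was fitted to them. The test of the study was such a model, so its number of calls and the one here can differ through the test. limma 3.58.1 (R 4.3.3) was fitted, with the mean-variance trend option and no covariate, to log2(RPKM + 0.1), with Benjamini-Hochberg adjustment over 13952 genes, and was tested on simulated data. Reads served for the filter, for exact Poisson 95% intervals, in which PCR copies are not independent molecules, and for voom. Symbols were found for 21781 identifiers. Coordinates and promoters come from RefSeq GRCm38.p6.

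The members, the gene lists and the alternatives were chosen with earlier results of these data known. Besides the members, the text names the 3 closest profiles of each member, all tested genes of lists with up to 5 tested genes, otherwise the 4 with the largest difference among those at 1 RPKM or more in a group, and of each marker list the 2 with the highest level and those at 0 in a library. Genes outside this rule are marked as chosen after their values were seen, apart from those that only state a count. Profile differences are root mean squares over 6 libraries. Some results for single genes are not reported here, and lncRNAs were not analysed here.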

Additional observations from a re-analysis of the deposited data

How the results depend on the processing

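Of 13 alternatives, 11 called 0 genes like the fit reported. Sample weights called 268 genes, 100 higher and 168 lower in HE. With 1 library left out the count ran from 0 to 103, the latter without NC3, with 7 higher and 96 lower. The number of members with groups that do not overlap, 1 of 9, ran from 1 to 9 with 1 library left out, and was 9 without NC2 and 5 without HE1, where 22.5% and 25.9% of the genes tested were lower in HE without overlap, against 17.9% with all libraries. The median difference over the members past the filter, -1.41, was -0.67 with a pseudocount of 1, -1.07 over the 9 genes when 1 read in any sample was enough, -1.02 over the 3 genes with at least 10 reads in every sample, -1.35 with median-of-ratios scaling, -1.46 in voom and -1.32 with sample weights. It lay between -1.77 (without NC2) and -0.90 (without NC1) with 1 library left out. Of 87 values for single members under the alternatives, 0 changed direction and 2 passed the cutoffs, both with sample weights: Emx2 at -1.56 (adjusted p = 0.0333 in limma) and Sp8 at -2.88 (adjusted p = 0.0404 in limma). The cause was not tested. Among the lists, the median of the rostral signalling centre was -0.01 with every gene that had a read and 0.01 with at least 10 reads in every sample, that of the paralogs was -0.09 with every gene that had a read, that of GABAergic genes was -0.01 with sample weights, that of the dorsal telencephalon was -0.02 without HE3, and Dlx3 was at -1.52 in voom.

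The replicate numbers were not used as pairs in the fit reported. Deviations from the group means correlated at 0.156, 0.0869 and 0.0603 between samples of the same number and at -0.0764 to -0.00115 between others. Every sample was thus closest to its own number, at most a weak hint of pairing from the data only. The deviations sum to 0 within each group, so these correlations are not independent. Some matching of the numbers must come out highest, and whether the samples were paired was not tested. With the replicate number as a block 0 genes were called. The block cannot change the differences in this balanced design, so the median of the members stayed at -1.41, and only standard errors and p-values could move. The standard error of Sp8 was 0.35 instead of 0.70. The adjusted p-values of the members in limma ran from 0.099 for Sp8 to 0.347 for Emx1. Depth limits Dlx5, Dlx6 and Emx1, with 25, 19 and 23 reads at most. It also limits Dlx1 and Dlx2 in HE3, with 8 and 3 reads, and Sp8 in HE2 and HE3, with 4 and 6 reads.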
